A study of Mus musculus with 6 samples.

Results

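The 10 genes described here carry interleukin-11 (IL-11) and leukaemia inhibitory factor (LIF) signalling, together with a pair of chemokine genes that lie beside the IL-11 receptor copies. They are Il11, Lif, Il11ra1, Il11ra2, Lifr, Il6st, Stat3, Socs3, Ccl27a and Ccl27b, taken by gene symbol, and all 10 of them were found among the 24421 symbols of each count table. RNA was measured in 6 samples of mouse strain C57BL/6N, labelled as entire embryos of embryonic day 9.5. Of these, 3 are labelled as homozygous knockouts of Lphn2 (Lphn2 KO) and 3 as wild type (WT). Lphn2, now named Adgrl2, encodes the adhesion receptor latrophilin-2, and the series presents it as a surface marker of cardiac progenitor cells with a role in the developing heart. The labels do not say how the allele was made, which part of the gene is missing, or whether a sample is 1 embryo. Libraries read tags from the 3' ends of polyadenylated RNA. Levels are given as CPM, the usual scaling of counts to a common library total, with totals adjusted by the TMM method from the genes that libraries share.

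IL-11 and LIF belong to the IL-6 family of cytokines. Each binds a receptor chain of its own, IL-11 receptor alpha or LIF receptor, which then pairs with gp130, the chain that the family shares. Janus kinases on the receptor phosphorylate STAT3, which enters the nucleus and switches on genes, among them Socs3, whose product shuts the receptor off. In the mouse uterus LIF is needed for the blastocyst to implant, and IL-11 receptor alpha is needed for the stroma to form a lasting decidua, the maternal tissue around the conceptus. CCL27 is a chemokine of skin epithelium that attracts lymphocytes carrying CCR10.

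The libraries differed in more than the genotype label. Total counts ran from 14476809 to 23887717 in Lphn2 KO and from 18352150 to 36213611 in WT libraries. Adgrl2 itself stood at 5.49, 1.67 and 2.78 CPM in Lphn2 KO replicates 1 to 3 and at 10.9, 7.56 and 15.96 CPM in WT replicates 1 to 3, and 3' tags can lie outside a deleted part, so this checks no label. Against the label of whole embryo, 11 marker genes of decidual stroma summed to 7604 to 13185 CPM in Lphn2 KO and 18054 to 32883 CPM in WT libraries, with Prl8a2 the highest of them in every WT library. Without Prl8a2, an alternative chosen after seeing the data, the other 10 summed to 4704, 7726 and 7849.8 CPM in Lphn2 KO replicates 1 to 3 and 3065, 4137 and 2601 CPM in WT replicates 1 to 3, so that the order of the groups turned. Des, the highest of these 10 in every library, stood at 2014 to 3538 CPM in Lphn2 KO and 928 to 1493 CPM in WT libraries. Prl3c1, another of the 10, went the other way, at 0.400 to 12.7 CPM in Lphn2 KO and 71.7 to 146 CPM in WT libraries. Des and Prl3c1 were named after their values were seen. The 15 marker genes of the embryo proper summed to 21.1 to 40.7 CPM in Lphn2 KO and 62.8 to 346 CPM in WT libraries. Trophoblast markers summed to 3546, 51.2 and 140.1 CPM in Lphn2 KO replicates 1 to 3, against 1351 to 5787 CPM in WT libraries, and Lphn2 KO replicate 1 correlated more closely with WT replicates 1 and 2 (r = 0.956 and 0.942 across genes) than with Lphn2 KO replicates 2 and 3 (r = 0.909 and 0.913). Uterine natural killer cell markers summed to 484 to 878 CPM in Lphn2 KO and 167 to 354 CPM in WT libraries. In such bulk samples, fewer cells of a type and less RNA per cell cannot be told apart.

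The 10 genes fell into 3 patterns. The multicopy genes Il11ra2 and Ccl27b, and to a lesser extent Ccl27a, were lower in every Lphn2 KO library than in any WT library. Lifr, Stat3 and Socs3 were higher in every Lphn2 KO library than in any WT library. For Il11, Lif, Il11ra1 and Il6st the groups overlapped. The genes were selected on their Lphn2 KO and WT levels in this contrast, so those levels and fold changes are descriptions and carry no test. For the same reason nothing is read from the count that 2 of the 10, Il11ra2 and Ccl27b, were among the 7 symbols of 13848 tested (0.0505%) that were lower at an adjusted p under 0.05 by the quasi-likelihood test of edgeR, where 0 symbols (0%) were higher. Of these 7 symbols, Gm2002, Gm13306 and LOC100861978 repeat the counts of Il11ra2 or Ccl27b. With 1 symbol kept per set of identical counts, 0 of the 10 genes were called. The count was also 0 without Lphn2 KO replicate 2, Lphn2 KO replicate 3 or WT replicate 1, and 1 without WT replicate 2. Numbers of copies in this stretch of chromosome 4 are known to differ between mouse strains. The labels name C57BL/6N for all 6 samples, but whether both groups carry the same copies was not tested, so fewer copies and less RNA per copy cannot be told apart. Groups did not overlap for 3 of the 10 genes with Lphn2 KO below WT and for 3 with Lphn2 KO above WT, where 9.39% and 12.1% of all tested genes had such values. At an unadjusted p under 0.05, 3 of the 10 were lower and 4 higher, against 6.86% and 8.68% of all tested genes. DESeq2, a second count test, called 3 of the 10 lower and 1 higher at an adjusted p under 0.05, against 2.99% and 3.4% of all tested genes.

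**Figure D1:**
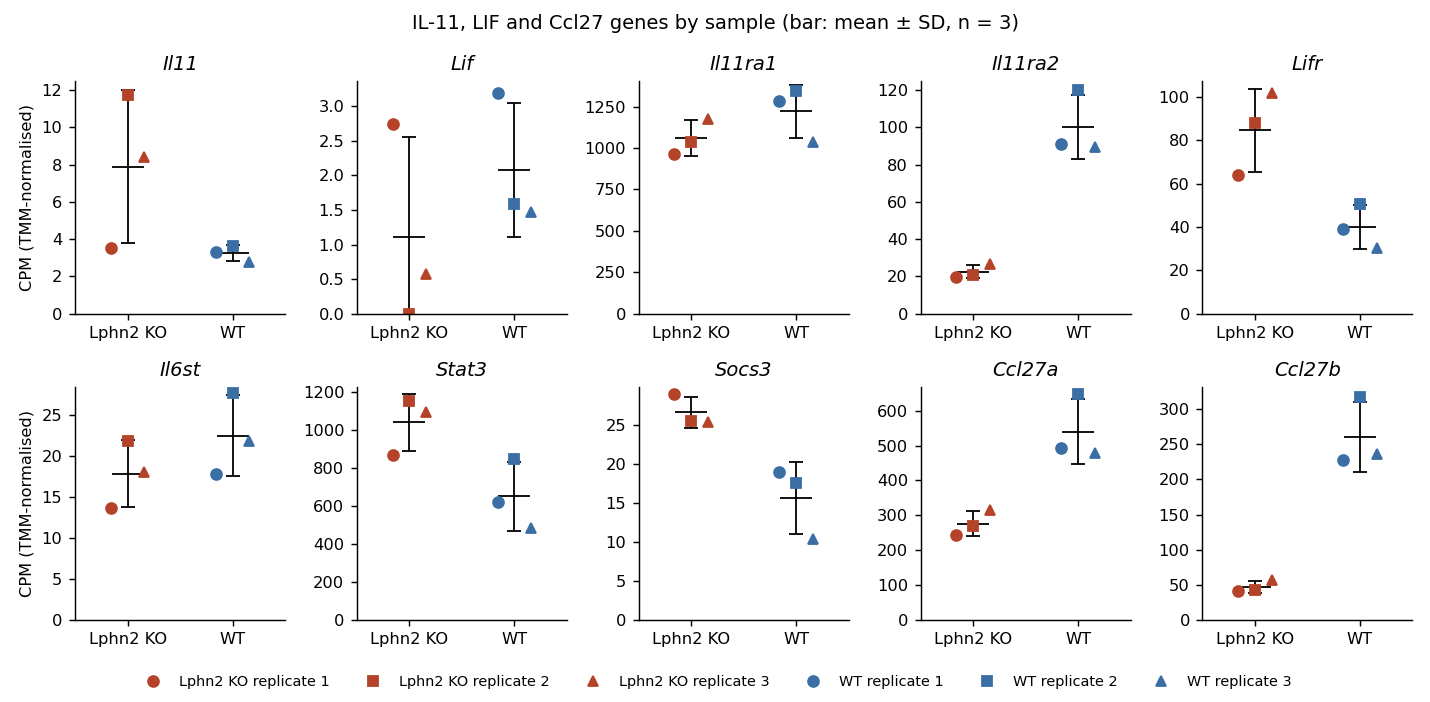
TMM-normalised CPM (vertical axes, each from 0) of the 10 genes in each of the 3 Lphn2 KO and 3 WT libraries, with the mean and SD of each group as black bars. Il11ra2, Ccl27a and Ccl27b have all Lphn2 KO points below all WT points, Lifr, Stat3 and Socs3 have them all above, and Il11 is high in Lphn2 KO replicates 2 and 3 only.

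Il11, the ligand that acts on decidualising stroma, lies on the minus strand of chromosome 7 (mm10, 4772373 to 4782859). It stood at 3.53, 11.7 and 8.41 CPM in Lphn2 KO replicates 1, 2 and 3 and at 3.33, 3.66 and 2.80 CPM in WT replicates 1, 2 and 3. Lphn2 KO replicate 1 thus lay within the WT range, while replicates 2 and 3 lay above it. The means were 7.89 ± 4.13 CPM in Lphn2 KO and 3.26 ± 0.435 CPM in WT libraries (SD, n = 3 each), with a log2 fold change of Lphn2 KO over WT of 1.27 ± 0.46 (SE). Without Lphn2 KO replicate 1 it was 1.63, without Lphn2 KO replicate 2 it was 0.88, and these levels rest on 60 to 176 counts per library. The library that stood apart for Il11 was also the Lphn2 KO library with the WT-like trophoblast level, and the part of that in the Il11 value was not tested.

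Lif, the ligand made by uterine glands before implantation (chromosome 11, 4257557 to 4272514, plus strand), was near the limit of what the depth can show. It had 70, 0 and 8 counts in Lphn2 KO replicates 1, 2 and 3, against 88, 26 and 56 counts in WT replicates 1, 2 and 3. Its levels were 2.75, 0 and 0.570 CPM in Lphn2 KO and 3.19, 1.58 and 1.46 CPM in WT libraries, so that the groups overlapped through Lphn2 KO replicate 1. A count of 0 in the 15275299 counts of Lphn2 KO replicate 2 allows up to 0.196 CPM before TMM scaling. The log2 fold change was -0.87 ± 1.20 (SE), -2.85 without Lphn2 KO replicate 1 and -0.30 without Lphn2 KO replicate 2. Marker genes of uterine epithelium and glands, the source of Lif in the uterus, summed to 522, 229 and 212 CPM in Lphn2 KO and 417, 508 and 276 CPM in WT replicates 1 to 3. Lphn2 KO replicate 1 was the highest of its group for Lif and for this sum. Cdh1 was the highest of these genes in every library. It stood at 393, 218 and 195 CPM in Lphn2 KO and 262, 330 and 183 CPM in WT replicates 1 to 3. Its groups overlapped, while Foxa2 was lower in every Lphn2 KO library, at 7.18, 0 and 0 CPM against 17.1, 19.0 and 19.4 CPM. Cdh1 and Foxa2 were named after their values were seen, and the part of these cells in the Lif value was not tested.

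Il11ra1, the IL-11 receptor alpha gene needed for decidualisation (chromosome 4, 41699989 to 41769474, plus strand), was read at 962, 1038 and 1175 CPM in Lphn2 KO replicates 1 to 3 and at 1284, 1342 and 1039 CPM in WT replicates 1 to 3. The groups overlapped, since WT replicate 3 lay within the Lphn2 KO range. The means of 1059 ± 108.0 CPM in Lphn2 KO and 1222 ± 161 CPM in WT libraries gave a log2 fold change of -0.21 ± 0.18 (SE), and it stayed between -0.32 and -0.12 over the 16 alternative analyses.

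Il11ra2 (chromosome 4, 42656355 to 42661893, minus strand) is a second IL-11 receptor alpha gene, 886880 bases from Il11ra1. It was read at 19.9, 20.9 and 26.6 CPM in Lphn2 KO replicates 1 to 3, against 90.9, 119.8 and 89.3 CPM in WT replicates 1 to 3. The highest Lphn2 KO library lay well under the lowest WT library, and Lphn2 KO replicate 1 stood with its own group. The means of 22.5 ± 3.59 CPM in Lphn2 KO and 99.98 ± 17.2 CPM in WT libraries gave a log2 fold change of -2.15 ± 0.21 (SE). It was -2.07 without Lphn2 KO replicate 1 and -2.22 without WT replicate 1, the sample whose description code begins with another number than the codes of the other 5.

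The coding parts of the 2 receptor genes are nearly the same, which bears on what a tag can tell. The GENCODE transcript Il11ra2-201 holds 433 codons and no untranslated sequence, and over its 1299 bases it differs from Il11ra1-201 at 13 positions, with identical runs of up to 356 bases. The last 150 coding bases of each show how few of the letters separate them, with the differing bases in capitals:
Il11ra1: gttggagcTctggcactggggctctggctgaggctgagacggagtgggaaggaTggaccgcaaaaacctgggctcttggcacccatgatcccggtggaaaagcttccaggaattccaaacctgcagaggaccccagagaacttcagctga
Il11ra2: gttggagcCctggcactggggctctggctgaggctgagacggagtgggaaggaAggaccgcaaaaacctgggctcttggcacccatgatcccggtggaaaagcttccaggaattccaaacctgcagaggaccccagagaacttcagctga
Only 2 of these 150 bases differ. Gm13305, a further copy on chromosome 4 (42158842 to 42168603, minus strand), holds the 1299 bases of Il11ra2-201 without a difference, and its last 300 transcript bases differ from those of Il11ra1-201 at 4 positions. In the tables, Gm2002 had the counts of Il11ra2 in all 6 libraries. Gm13305 had counts of its own, at 16.6, 19.3 and 21.9 CPM in Lphn2 KO replicates 1 to 3 and 29.4, 27.9 and 22.4 CPM in WT replicates 1 to 3. It too was lower in every Lphn2 KO library, by less than Il11ra2, with a log2 fold change of -0.47 ± 0.20 (SE). Which copy a tag came from is uncertain for all of these symbols, and how the authors treated tags that match several places is not given in the sources used here.

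Within each library the share of Il11ra2 in the counts of Il11ra1 and Il11ra2 together does not depend on scaling. It was 2.03%, 1.98% and 2.21% in Lphn2 KO replicates 1 to 3 and 6.61%, 8.19% and 7.91% in WT replicates 1 to 3. The widest exact (Clopper-Pearson) 95% intervals were 2.00% to 2.45% in Lphn2 KO replicate 3 and 7.85% to 8.55% in WT replicate 2. They take each count as a separate tag and cover counting error only. The spread within each group was small against the gap between groups, with means of 2.07 ± 0.123% in Lphn2 KO and 7.57 ± 0.846% in WT libraries (SD, n = 3 each). All 6 Il11ra1 counts were multiples of 3, so these counts may not be separate tags. With this divisor removed the means were 5.97% in Lphn2 KO and 19.7% in WT libraries. The same intervals were then 5.74% to 7.01% in Lphn2 KO replicate 3 and 20.3% to 22.0% in WT replicate 2.

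Lifr, the chain that binds LIF (chromosome 15, 7090614 to 7197489, plus strand), was read at 64.2, 88.0 and 101.9 CPM in Lphn2 KO replicates 1 to 3, against 39.3, 50.6 and 30.1 CPM in WT replicates 1 to 3. Every Lphn2 KO library was above every WT library, and Lphn2 KO replicate 1 was the lowest of its group. The means were 84.7 ± 19.1 CPM in Lphn2 KO and 40.0 ± 10.2 CPM in WT libraries, a log2 fold change of 1.08 ± 0.26 (SE). Il6st, which encodes gp130 (chromosome 13, 112464070 to 112510086, plus strand), was read at 13.6, 21.8 and 18.1 CPM in Lphn2 KO replicates 1 to 3 and at 17.9, 27.7 and 21.9 CPM in WT replicates 1 to 3. Its groups overlapped, with a log2 fold change of -0.33 ± 0.26 (SE). The ligand-binding chain and the shared chain of the LIF receptor thus had fold changes of opposite sign, and that difference was not tested.

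Stat3, the transcription factor that both receptors activate, lies on the minus strand of chromosome 11 (100885098 to 100939540). It stood at 869, 1153 and 1092 CPM in Lphn2 KO replicates 1 to 3, against 620, 843 and 483 CPM in WT replicates 1 to 3. The groups were apart by little, since Lphn2 KO replicate 1 lay just above WT replicate 2. The means were 1038 ± 149 CPM in Lphn2 KO and 649 ± 182 CPM in WT libraries, with a log2 fold change of 0.68 ± 0.25 (SE). All 6 Stat3 counts were multiples of 3. Over the 10 genes, the common divisor of the counts equalled the number of curated RefSeq transcripts in 5 and differed from it in 5. Il11ra2 and Il6st matched with a divisor of 1 and 1 transcript. Where the divisor was above 1, it equalled that number in Lif, Il11ra1 and Stat3 and differed in Socs3. Of all genes with at least 10 counts in all 6 libraries, 19.9% had a divisor above 1. Why counts share a divisor was not tested.

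Socs3, the feedback inhibitor of gp130 signalling, lies on the minus strand of chromosome 11 (117966079 to 117970047). It stood at 28.9, 25.5 and 25.4 CPM in Lphn2 KO replicates 1 to 3, against 18.98, 17.5 and 10.3 CPM in WT replicates 1 to 3. The Lphn2 KO libraries lay close together, and the WT libraries spread more widely below them. The means were 26.6 ± 1.99 CPM in Lphn2 KO and 15.6 ± 4.66 CPM in WT libraries, with a log2 fold change of 0.77 ± 0.26 (SE). Its 6 counts, like those of Lif, shared a divisor of 2. The promoter of Socs3 is a textbook target of STAT3, and its RefSeq promoter window (GRCm38.p6, chr11:117969317-117969616, minus strand) holds a match to the STAT motif TTCNNNGAA, which reads the same on both strands and is shown in capitals:
Socs3: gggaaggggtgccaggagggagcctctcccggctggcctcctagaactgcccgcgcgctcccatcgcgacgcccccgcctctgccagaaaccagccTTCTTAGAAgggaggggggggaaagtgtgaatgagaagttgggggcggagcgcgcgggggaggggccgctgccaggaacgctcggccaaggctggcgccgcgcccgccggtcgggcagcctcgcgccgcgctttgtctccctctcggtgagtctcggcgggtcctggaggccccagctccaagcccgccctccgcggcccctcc
The match starts 154 bases before the transcript start. Of 18 windows of 300 bases that RefSeq gives for the 10 genes, it was the only window with a match, and 8.30% of 32851 such windows of all genes held at least 1. A match describes letters in a window and not a bound site.

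Ccl27a, the chemokine gene whose 3' end meets that of Il11ra1 with 8 shared bases on the opposite strand, lies on the minus strand of chromosome 4 (41769467 to 41774247). It stood at 245, 268 and 315 CPM in Lphn2 KO replicates 1 to 3, against 493, 647 and 479 CPM in WT replicates 1 to 3. Every Lphn2 KO library lay below every WT library, with means of 276 ± 35.5 CPM in Lphn2 KO and 539.7 ± 93.5 CPM in WT libraries. The log2 fold change was -0.97 ± 0.20 (SE). Ccl27b (chromosome 4, 42655251 to 42656005, plus strand), which lies 349 bases from the 3' end of Il11ra2, was read at 40.4, 42.4 and 56.5 CPM in Lphn2 KO replicates 1 to 3, against 228, 317 and 236 CPM in WT replicates 1 to 3. Its fold change was the largest of the 10 genes, at -2.49 ± 0.23 on the log2 scale (SE), and was -2.40 without Lphn2 KO replicate 1 and -2.58 without WT replicate 1. On the CPM scale, the difference of means was -264 CPM for Ccl27a and -214 CPM for Ccl27b. Whether the counting used strand is not given in the sources used here, so reads where genes overlap cannot be assigned.

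The Ccl27 pair is as close in sequence as the receptor pair, also before the start of transcription. The RefSeq windows of Ccl27a (GRCm38.p6, chr4:41770163-41770462, minus strand) and Ccl27b (chr4:42655001-42655300, plus strand) are shown 5′ to 3′, with bases that differ in capitals:
Ccl27a: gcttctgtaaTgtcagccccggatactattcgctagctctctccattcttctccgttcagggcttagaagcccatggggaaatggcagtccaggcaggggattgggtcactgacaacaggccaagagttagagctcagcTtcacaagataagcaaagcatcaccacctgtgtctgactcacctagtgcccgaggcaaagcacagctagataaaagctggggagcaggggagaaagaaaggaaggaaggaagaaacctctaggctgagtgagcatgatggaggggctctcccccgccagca
Ccl27b: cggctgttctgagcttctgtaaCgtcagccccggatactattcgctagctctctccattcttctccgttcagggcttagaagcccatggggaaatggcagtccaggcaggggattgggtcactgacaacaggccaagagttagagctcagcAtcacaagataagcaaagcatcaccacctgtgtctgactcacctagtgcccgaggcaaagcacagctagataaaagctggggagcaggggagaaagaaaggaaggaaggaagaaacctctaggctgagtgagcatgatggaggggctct
Over 288 aligned bases 2 differ. The window of Gm13306, a further copy (chromosome 4, 42153436 to 42158839, plus strand), is identical to that of Ccl27b over all 300 bases. The transcripts Ccl27a-203 and Ccl27b-201 differ at 3 of 425 aligned bases, all 3 of them within the last 300, the part nearest to where 3' tags are read. Gm13306 and LOC100861978 had the counts of Ccl27b in all 6 libraries. For the Ccl27 symbols, too, it is uncertain which copy a tag came from. In contrast, no alignment beyond 5 bases was found for the windows of Il11ra1 and Il11ra2, while those of Il11ra2 and Gm13305 were identical over 299. Each window is placed by the annotated start of its own record, and whether the starts of Il11ra1 and Il11ra2 correspond was not tested.

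The share of Ccl27b in the counts of Ccl27a and Ccl27b together was 14.2%, 13.7% and 15.2% in Lphn2 KO replicates 1 to 3 and 31.6%, 32.9% and 33.1% in WT replicates 1 to 3. Both groups were tight, at 14.4 ± 0.803% in Lphn2 KO and 32.5 ± 0.785% in WT libraries (SD, n = 3 each), with exact 95% intervals no wider than 12.7% to 14.7% in Lphn2 KO replicate 2. With the counts of Gm13306 and LOC100861978 added to Ccl27b, the means were 33.4% in Lphn2 KO and 59.1% in WT libraries. Epidermal marker genes, of the tissue where CCL27 is known to act, were high in WT replicate 3 only. They summed to 4.20, 4.27 and 6.63 CPM in Lphn2 KO and 7.54, 3.78 and 63.0 CPM in WT replicates 1 to 3. Their part in the Ccl27 values was not tested.

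**Figure D2:**
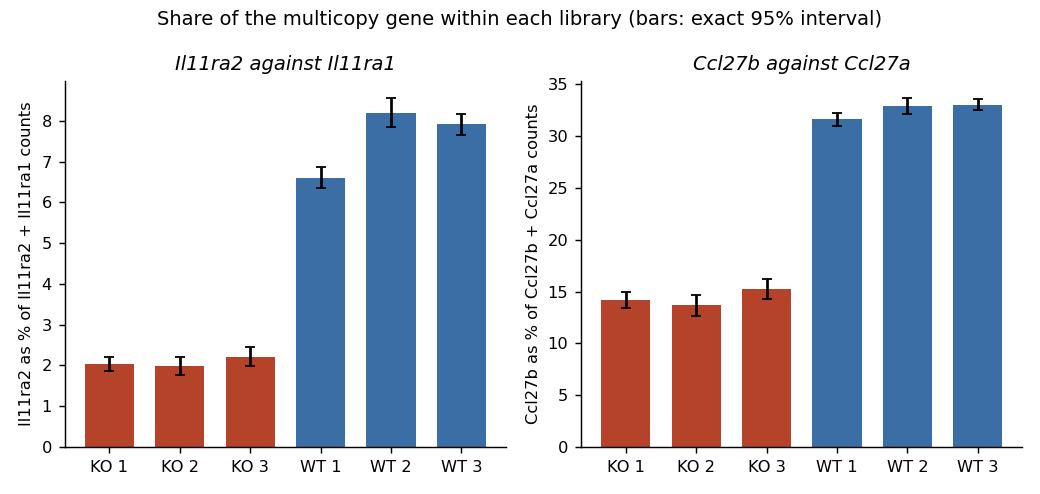
Counts of Il11ra2 as a percentage of Il11ra2 plus Il11ra1 (left) and of Ccl27b as a percentage of Ccl27b plus Ccl27a (right), in each Lphn2 KO and WT library. Exact 95% intervals for counting error take each count as a separate tag. Lphn2 KO libraries sit between 1.98% and 2.21% on the left and between 13.7% and 15.2% on the right, below all WT libraries in both panels.

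Across the 6 samples, log2 CPM of Il11ra2 and Ccl27b had a Pearson correlation of 0.9998, and Il11ra2 had one of 0.98 with Ccl27a and of 0.68 with Il11ra1. Lifr and Stat3 had one of 0.97. These values describe 6 samples that fall into 2 genotype groups. Among tested genes outside the 10 and with an established name, the 5 most like Il11ra2 were Ddo, Egr1, Nrgn, Pax9 and Plch1 (r = 0.991 to 0.993). Nrgn, which encodes a calmodulin-binding protein of neurons, stood at 15.3, 16.9 and 33.8 CPM in Lphn2 KO and at 133, 187 and 145 CPM in WT replicates 1 to 3. Egr1, an early response transcription factor, stood at 10.3 to 10.8 CPM in Lphn2 KO and 11.9 to 12.5 CPM in WT libraries, so a like pattern did not mean a like size of difference. Ddo, Pax9 and Plch1 had 0 counts in every Lphn2 KO library and means of 1.20, 0.738 and 1.05 CPM in WT libraries. The 5 most like Il11 were Gabarap, Repin1, Atp5j, Sp3 and Dusp11 (r = 0.991 to 0.999), and the 5 most like Lifr were Shfm1, Mif4gd, Hoxd10, Tmtc1 and Tmem192 (r = 0.997 to 0.998).

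The genes that surround the receptor and chemokine copies give the setting for these values. Within 500 kb of the 4 genes on chromosome 4, GENCODE places 86 genes, of which 44 had a symbol in the tables and 26 were tested. Of the 21 tested genes that are neither among the 10 nor carry the counts of any of them, 0 were lower and 0 higher at an adjusted p under 0.05 by edgeR, against 0.0505% and 0% of all tested genes. Their median log2 fold change was -0.026, beside -0.039 over all genes tested. Dctn3, a dynactin subunit, stood at 120.5 ± 16.2 CPM in Lphn2 KO and 101.1 ± 3.14 CPM in WT libraries, and lies in the stretch that GENCODE assigns to Il11ra1. Vcp, a ubiquitin-dependent ATPase on the far side of Il11ra2, stood at 462 ± 32.1 CPM in Lphn2 KO and 428 ± 21.6 CPM in WT libraries. Enho, which encodes the secreted peptide adropin, stood at 56.3 ± 18.4 CPM in Lphn2 KO and 22.97 ± 5.56 CPM in WT libraries, and Dnaic1, of ciliary dynein, at 9.29 ± 1.39 CPM in Lphn2 KO and 4.13 ± 1.26 CPM in WT libraries. The Lphn2 KO values of Enho and Dnaic1 lay above all WT values. Those of AI464131 lay below all WT values, at 0.398 ± 0.294 CPM in Lphn2 KO and 1.34 ± 0.436 CPM in WT libraries, as did those of Gm13305. Dctn3, Vcp, Enho, Dnaic1 and AI464131 were named after their values were seen.

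**Figure D3:**
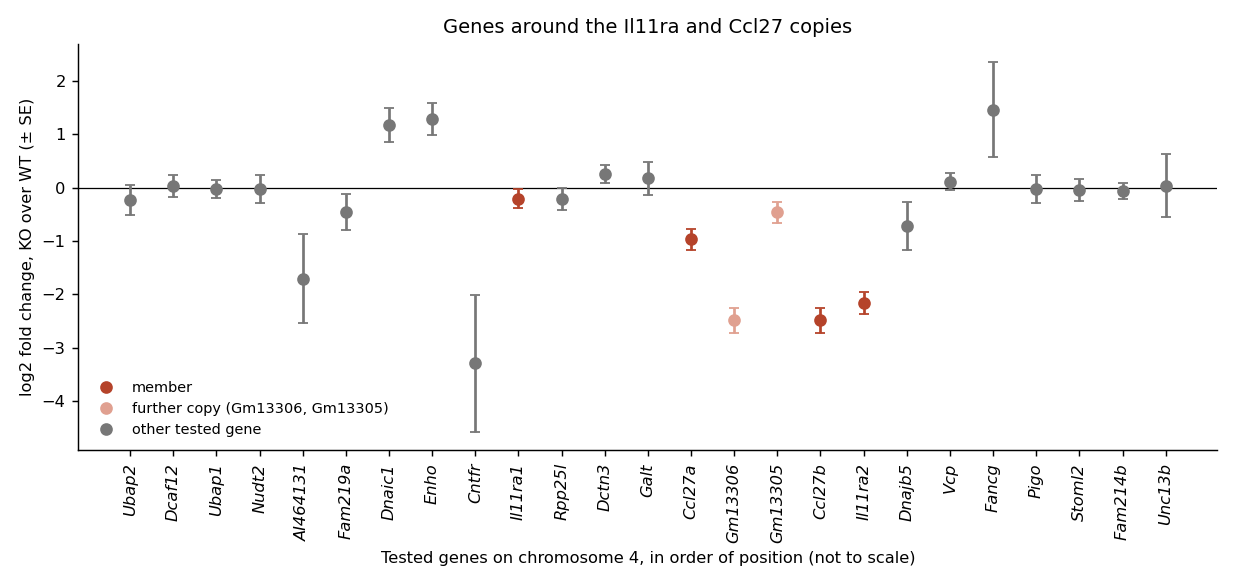
Log2 fold change of Lphn2 KO over WT with its SE (vertical axis) for all but 1 of the 26 tested genes within 500 kb of Il11ra1, Il11ra2, Ccl27a or Ccl27b, in order of position along chromosome 4 and not to scale. Ccl27b, Il11ra2, the copy Gm13306 and the scarce Cntfr lie below -2, Ccl27a near -1, and most other genes near 0.

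The wider IL-6 family had no called gene. Of 9 further ligands 6 were tested and of 5 further receptors 4, with 0 lower and 0 higher by edgeR in each list and likewise 0 in either direction by DESeq2. At an unadjusted p under 0.05, 0 ligands were lower or higher, and 1 receptor was lower and 0 were higher. At that threshold 6.86% of all tested genes were lower and 8.68% higher, and DESeq2 called 2.99% lower and 3.4% higher. Median log2 fold changes were -0.81 for the ligands and 0.34 for the receptors. Osm, oncostatin M, stood at 5.54 ± 4.93 CPM in Lphn2 KO and 10.8 ± 7.56 CPM in WT libraries. Ctf1, cardiotrophin-1, stood at 0.802 ± 0.893 CPM in Lphn2 KO and 3.15 ± 1.76 CPM in WT libraries. Among receptors, Cntfr, which binds ciliary neurotrophic factor and lies beside Il11ra1, stood at 0.327 ± 0.334 CPM in Lphn2 KO and 3.24 ± 3.63 CPM in WT libraries, highest in WT replicate 3 at 7.37 CPM. Il6ra, the IL-6 receptor, stood at 10.3 ± 2.36 CPM in Lphn2 KO and 7.40 ± 3.29 CPM in WT libraries, and Osmr, the oncostatin M receptor, at 13.2 ± 4.66 CPM in Lphn2 KO and 10.8 ± 4.32 CPM in WT libraries.

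Transducers had no called gene by edgeR either. All 12 Janus kinases, STATs, phosphatases and adaptors listed were tested, with 0 lower and 0 higher and a median log2 fold change of 0.14. At an unadjusted p under 0.05, 0 were lower and 2 higher, against 6.86% and 8.68% of all tested genes. DESeq2 called 0 lower and 1 higher, against 2.99% and 3.4% of all tested genes. Tyk2, a Janus kinase, was read at 59.6, 58.1 and 56.6 CPM in Lphn2 KO replicates 1 to 3, against 38.8, 36.9 and 32.1 CPM in WT replicates 1 to 3. Its groups did not overlap, with a log2 fold change of 0.69 ± 0.15 (SE; edgeR adjusted p = 0.167), and it passed with DESeq2 (adjusted p = 0.0109). Jak1, the main kinase of gp130, stood at 202 ± 50.2 CPM in Lphn2 KO and 132 ± 36.4 CPM in WT libraries, with overlapping groups.

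The list of genes that STAT3 is known to induce held 18, all of them tested, and their log2 fold changes had a median of 0.37. By edgeR 0 were lower and 0 higher, with 0 lower and 6 higher at an unadjusted p under 0.05, while DESeq2 called 5 higher and 0 lower. Over all tested genes, 6.86% were lower and 8.68% higher at an unadjusted p under 0.05, and DESeq2 called 2.99% lower and 3.4% higher. In 7 of the 18 every Lphn2 KO value lay above every WT value, beside 12.1% of all tested genes. In 1 every Lphn2 KO value lay below, beside 9.39% of all tested genes. The 7, of which Cebpb, Cebpd, Mcl1 and Irf1 were named after their values were seen, also hold Bcl3, Junb and Il4ra. Bcl3, an atypical IκB protein, was read at 81.6, 147.0 and 125 CPM in Lphn2 KO replicates 1 to 3, against 35.6, 48.4 and 31.8 CPM in WT replicates 1 to 3 (log2 fold change 1.61 ± 0.27 SE, edgeR adjusted p = 0.165). Junb, an AP-1 subunit, was read at 223, 367 and 279 CPM in Lphn2 KO replicates 1 to 3, against 108, 165 and 101.3 CPM in WT replicates 1 to 3 (1.22 ± 0.27 SE, edgeR adjusted p = 0.167). Il4ra, the IL-4 receptor alpha chain, was read at 205, 346 and 313 CPM in Lphn2 KO replicates 1 to 3, against 129.5, 106.5 and 80.3 CPM in WT replicates 1 to 3 (1.45 ± 0.27 SE, edgeR adjusted p = 0.166). All 3 were lowest of their group in Lphn2 KO replicate 1. Without it all 3 passed with edgeR (adjusted p = 0.0213, 0.0484 and 0.0256). In that setting edgeR called 4 of the 18 higher and 1 lower, where 252 genes were higher and 466 lower over all genes tested. Immune cells also express Bcl3, Junb and Il4ra. Summed natural killer cell markers were higher in every Lphn2 KO library as given above, while the groups overlapped for summed macrophage markers. Gzmc was the highest natural killer cell marker in every library. Of these markers the groups overlapped for Ncr1 alone, at 1.84, 4.47 and 2.99 CPM in Lphn2 KO and 2.28, 0.975 and 1.49 CPM in WT replicates 1 to 3. The 5 macrophage markers summed to 280, 247 and 292 CPM in Lphn2 KO and 415, 571 and 235 CPM in WT replicates 1 to 3. Csf1r, the highest of them in every WT library, lay below all WT values in every Lphn2 KO library (log2 fold change -1.45). Adgre1, Cd68, Lyz2 and C1qa had overlapping groups and log2 fold changes of 0.52, 0.68, 0.69 and 0.43. The single markers were named after their values were seen. The part of immune cells in the values of Bcl3, Junb and Il4ra was not tested.

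Genes of implantation and decidualisation did not move as a unit. Of 18 genes, all tested, edgeR called 0 lower and 0 higher, with 3 lower and 7 higher at an unadjusted p under 0.05, and DESeq2 called 1 lower and 5 higher. The shares over all tested genes were 6.86% lower and 8.68% higher without adjustment, and 2.99% lower and 3.4% higher with DESeq2. The median log2 fold change was 0.40. Bmp2, a morphogen of the decidualising stroma, was read at 252, 376 and 323 CPM in Lphn2 KO replicates 1 to 3, against 99.2, 188 and 130.1 CPM in WT replicates 1 to 3 (log2 fold change 1.19 ± 0.28 SE, edgeR adjusted p = 0.172). Nr2f2, a nuclear receptor of uterine stroma, stood at 546 ± 38.6 CPM in Lphn2 KO and 354 ± 19.1 CPM in WT libraries (0.62 ± 0.16 SE, edgeR adjusted p = 0.176). Prl8a2, a prolactin-related product of the mature decidua, was read at 2900, 1279 and 5335 CPM in Lphn2 KO replicates 1 to 3, against 14989, 28746 and 17981 CPM in WT replicates 1 to 3 (-2.70 ± 0.54 SE, edgeR adjusted p = 0.166). Every Lphn2 KO library was above every WT library for Bmp2 and Nr2f2 and below every WT library for Prl8a2, so that decidual genes lay on both sides. Hoxa10, Hoxa11, Pgr and Wnt4, named after their values were seen, lay on the side of Bmp2, with log2 fold changes of 1.05, 0.89, 1.05 and 1.27. Egr1 and Fkbp4 lay on the side of Prl8a2, with log2 fold changes of -0.21 and -0.52, and Fkbp4 too was named after its values were seen. Groups thus did not overlap for 6 of the 18 with Lphn2 KO above WT and for 3 with Lphn2 KO below WT. Such values were found in 12.1% and 9.39% of all tested genes.

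Receptors and relatives of CCL27 were scarce. Of 8 genes 2 were tested, with 0 lower and 0 higher by edgeR, by DESeq2 or at an unadjusted p under 0.05. Among all tested genes, DESeq2 called 2.99% lower and 3.4% higher, and 6.86% were lower and 8.68% higher without adjustment. Ccr10, the receptor of CCL27, stood at 0.235, 0.933 and 0 CPM in Lphn2 KO and at 0.217, 0 and 0.287 CPM in WT replicates 1 to 3, too low to be tested. Ackr2, a scavenging receptor of inflammatory chemokines, stood at 1.29 ± 0.580 CPM in Lphn2 KO and 2.24 ± 1.16 CPM in WT libraries, and Ccr7, the receptor of CCL19 and CCL21, at 1.07 ± 0.670 CPM in Lphn2 KO and 0.854 ± 0.970 CPM in WT libraries. Ccl19 had 0 counts in all 6 libraries, and Ccl28, the other ligand of CCR10, had counts in WT replicate 1 alone, at 0.145 CPM. Ccl21a, Ccl21b and Ccl21c, a further multicopy family of the same stretch of chromosome 4, reached at most 0.0713 CPM in Lphn2 KO and 2.14 CPM in WT libraries. In WT replicate 2 they reached at most 0.0609 CPM.

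**Figure D4:**
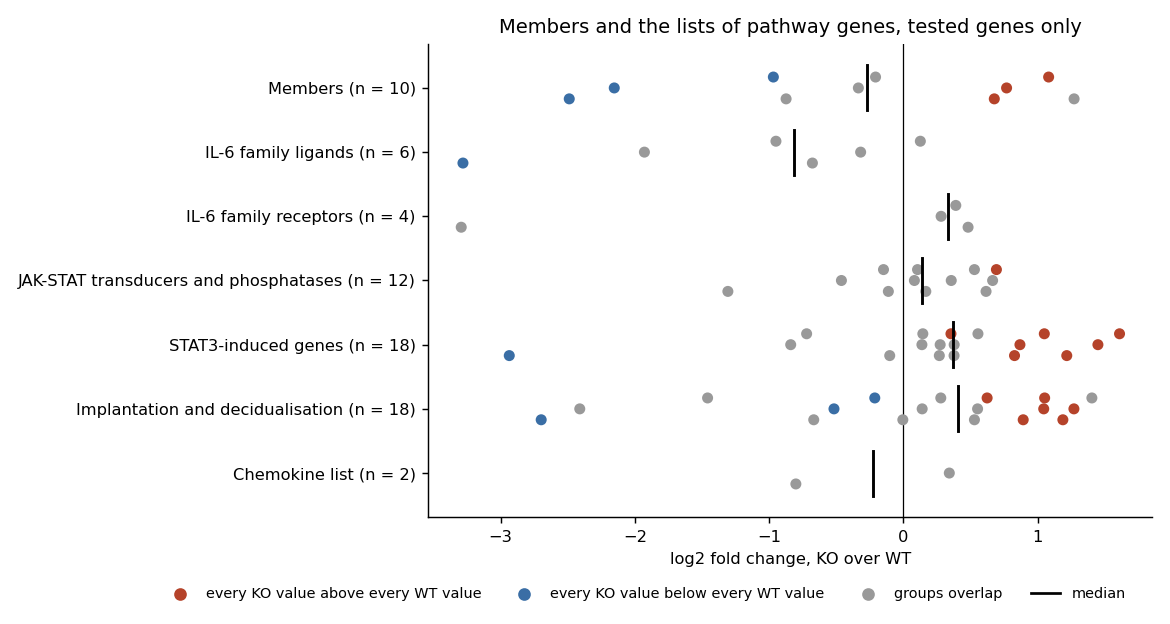
Log2 fold change of Lphn2 KO over WT (horizontal axis) of each tested gene among the 10 described and in the 6 lists of pathway genes, with the median of each as a black line. Red points have every Lphn2 KO value above every WT value and blue points every value below; 7 of 18 STAT3-induced genes are red, and Il11ra2, Ccl27a and Ccl27b are the blue points of the top row.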

How the data were processed

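RNA of 6 samples, 3 Lphn2 KO and 3 WT by their titles, went into Lexogen QuantSeq libraries from 500 ng of total RNA, per the labels' protocols. The authors deposited whole-number counts per gene symbol, without normalization. The submitters' processing notes name Bowtie2, edgeR and build mm10. Versions, the counting program, its annotation and its treatment of strand and of multiple matches were not given in the sources used here. Genes passing filterByExpr (minimum count of 10, 13848 genes) were scaled by TMM and compared by the quasi-likelihood test of edgeR 4.0.16 in R 4.3.3, two-sided, with no covariate and Benjamini-Hochberg adjustment over all genes. SE is the log2 fold change over the root of the F statistic. CPM are relative to the effective library size, and log2 CPM used a prior count of 2. Fits were run on simulated counts with known changes and the same dispersion for all genes, which is no check on the calls in these data. DESeq2 1.42.0 and limma 3.58.1 were alternatives. Positions and transcripts are from GENCODE M21, and promoters from RefSeq on GRCm38.p6, found for 10 of 10 genes, aligned with Biopython 1.88.

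The 10 genes, the pathway and marker lists and the naming rule were chosen with earlier results of these data known. The rule names each list's calls or, with none, its 3 genes of smallest p, the whole chemokine list, symbols with the counts of one of the 10 genes, and 5 genes most like each of Il11ra2, Il11 and Lifr. Of the genes it names, 2 are not reported here, nor is 1 neighbouring gene. The labels do not say that samples are separate animals, so the p-values take in only the spread of these libraries, part of which may be technical.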

Additional observations from a re-analysis of the deposited data

How the results depend on the processing

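The 10 genes kept the sign of their log2 fold change in all 16 alternatives in which each was tested; Il11 and Lif were not tested where 3 libraries had to reach 5 CPM. Calls moved more. The 7 genes lower and 0 higher became 414 and 471 with DESeq2, 0 lower with the replicate block and with 1 symbol kept per set of identical counts, and 0 to 466 lower and 0 to 252 higher when 1 sample was left out. The 2 called lower among the 10 became 0 with the block and with 1 symbol per set, and 0 to 2 when 1 sample was left out: 0 without Lphn2 KO replicate 2, Lphn2 KO replicate 3 or WT replicate 1, and 1 without WT replicate 2. Called higher among the 10 were 1 with DESeq2 and 0 to 2 with 1 sample left out, the 2 (Il11 and Lifr) without Lphn2 KO replicate 1. Of the pathway genes, 1 was lower and 11 higher with DESeq2, and 0 to 3 lower and 0 to 6 higher with 1 sample left out, the 3 and 6 without Lphn2 KO replicate 1. Adding copies with their own symbol set the Il11ra2 share to 4.06% in Lphn2 KO and 14.1% in WT, and that of Ccl27b to 33.4% and 59.1%; removing common divisors set the Il11ra2 share to 5.97% and 19.7%. The log2 fold change turned sign for Ccr7 without Lphn2 KO replicate 2 (-0.082) or WT replicate 3 (-0.23, with a range of -0.23 to 1.80 over samples left out) and for Osmr without WT replicate 3 (-0.0062, with a range of -0.0062 to 0.58). The cause of these changes was not tested. The labels do not say whether replicate numbers pair the samples. Deviations of same-numbered samples correlated at 0.127, -0.024 and 0.071, and those of other-numbered samples at -0.107 to 0.067. With 3 samples per group these values cannot decide whether samples are paired. The replicate block left log2 fold changes of -2.15 for Il11ra2 and -2.49 for Ccl27b. Depth limits Lif, Ccr10 and the Ccl21 genes.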

Other observations

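The ratio of Ccl27b to Il11ra2 was 2.03, 2.03 and 2.13 in Lphn2 KO replicates 1 to 3 and 2.51, 2.65 and 2.65 in WT replicates 1 to 3. Gm2506, a symbol named after its values were seen and among the 7 called lower, had 66.7% to 67.6% of the Ccl27b counts in every library.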
